A study of Mus musculus with 2 samples.

Results

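Toll-like receptor (TLR) genes were followed across the myeloid cell types of the mouse lung, with B and T cells beside them. The 10 genes Tlr1, Tlr2, Tlr3, Tlr4, Tlr7, Tlr8, Tlr9, Tlr11, Tlr12 and Tlr13 were taken by symbol, and all 10 were found among the 31053 genes counted. Together they held 24591 UMIs in the tamoxifen library and 10561 UMIs in the oil library. The data are 2 single-cell RNA libraries made with the 10x Genomics 3' v3 chemistry, which counts each captured messenger RNA molecule once by a unique molecular identifier (UMI). The cells were live CD45-positive lung cells that an antibody given into the bloodstream before death had not reached, that is, immune cells outside the bloodstream. The tamoxifen library came from adult Gli1creERT/Hhipflo/flox mice injected with tamoxifen, and the oil library came from mice of the same genotype injected with oil. Both groups therefore carry the floxed Hhip allele and the Gli1-driven, tamoxifen-inducible Cre, which acts in cells that express Gli1 or did so when tamoxifen was given. The number, strain and exact age of the animals are not given in the labels, and cells of both sexes were found in each library.

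Toll-like receptors are germline-encoded sensors of microbial molecules. Some sit at the cell surface and bind bacterial lipids and lipoproteins, and others sit in endosomes and bind nucleic acids or parasite proteins after the chaperone Unc93b1 has carried them there. Ligand binding recruits adaptors such as Myd88 or Ticam1 and leads to cytokine and interferon transcription, so the receptors a lung macrophage or dendritic cell carries bear on which microbes it can sense.

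Promoter sequence was read for members that peaked in different cell types, because the macrophage and neutrophil members and the cDC1 members can then be read side by side. Tlr8 and Tlr13 stand for the first kind and Tlr3 and Tlr11 for the second. Each sequence is the RefSeq promoter of GRCm38.p6, 250 bases before to 50 bases after the annotated start, on the strand of the gene, and capitals mark GAGGAA or its reverse complement TTCCTC, the core letters bound by the myeloid factor PU.1. The windows are chrX:167264280-167264579 on the minus strand for Tlr8, chrX:106143025-106143324 on the plus strand for Tlr13, chr14:50357664-50357963 on the plus strand for Tlr11 and chr8:45410331-45410630 on the minus strand for Tlr3.
Tlr8: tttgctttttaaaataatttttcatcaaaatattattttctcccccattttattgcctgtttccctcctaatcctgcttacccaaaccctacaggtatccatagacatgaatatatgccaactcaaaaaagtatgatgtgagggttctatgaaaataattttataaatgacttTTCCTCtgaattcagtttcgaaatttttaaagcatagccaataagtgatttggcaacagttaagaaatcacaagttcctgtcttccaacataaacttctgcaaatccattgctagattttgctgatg
Tlr13: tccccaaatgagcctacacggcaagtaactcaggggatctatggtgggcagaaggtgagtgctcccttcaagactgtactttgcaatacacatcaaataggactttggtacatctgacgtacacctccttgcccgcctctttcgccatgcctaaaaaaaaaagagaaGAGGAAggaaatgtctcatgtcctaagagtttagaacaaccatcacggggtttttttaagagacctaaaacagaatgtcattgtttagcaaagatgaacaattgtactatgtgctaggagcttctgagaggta
Tlr11: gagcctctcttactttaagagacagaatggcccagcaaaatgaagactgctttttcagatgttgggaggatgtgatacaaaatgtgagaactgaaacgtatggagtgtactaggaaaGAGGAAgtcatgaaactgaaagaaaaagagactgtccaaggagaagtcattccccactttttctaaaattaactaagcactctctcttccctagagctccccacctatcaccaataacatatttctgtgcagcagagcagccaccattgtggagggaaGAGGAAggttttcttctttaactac
Tlr3: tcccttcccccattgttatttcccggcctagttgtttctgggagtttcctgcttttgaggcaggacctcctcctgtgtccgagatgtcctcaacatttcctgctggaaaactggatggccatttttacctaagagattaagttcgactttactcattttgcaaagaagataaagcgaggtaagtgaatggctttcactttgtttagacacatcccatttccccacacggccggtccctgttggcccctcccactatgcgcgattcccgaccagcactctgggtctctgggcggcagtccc

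These letters occurred on either strand in 28.3% of the 32851 RefSeq promoters of the same length. Tlr8 held them once, with the match starting 77 bases before the start, and Tlr13 once, 83 bases before it. Tlr11 held them 133 bases before the start and again 25 bases after it, and Tlr3 did not hold them in this window. Of the other members in the promoter table, Tlr2 and Tlr12 did not hold them either, Tlr1 held them once in 1 of its 2 windows and Tlr9 held them in 2 places. A match describes the letters and is no evidence of binding.

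Cells were assigned by gates on raw UMIs in barcodes with at least 300 genes and under 10% mitochondrial UMIs, which left 10138 of 12980 barcodes in tamoxifen and 6794 of 10342 in oil, with medians of 6431 and 6360.5 UMIs. The gates took alveolar macrophages by Krt79 and Plet1, complement-rich macrophages (called C1q macrophages) by C1qa and C1qb, a macrophage state by Ly6i, Chil1 and Gpnmb, type 1 conventional dendritic cells (cDC1) by Xcr1 and Clec9a, type 2 (cDC2) by Mgl2 and Cd209a, mature dendritic cells by Ccr7 with Fscn1, neutrophils by Csf3r and Retnlg, B cells by Cd79a and T cells by Cd3d, Cd3e and Cd3g. Between the libraries, 18 kept barcode sequences were shared. Hhip, the targeted gene, had 29 UMIs in the kept tamoxifen barcodes and 40 in the oil ones, and Gli1 had 9 UMIs in each, so these sorted cells give no check of the deletion. With 1 library per condition no difference between them has a replicate check, and every interval here is a 95% interval that covers counting error only.

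The gates overlapped, and this set how each receptor could be read. In tamoxifen 27.5% of kept cells passed more than 1 gate, and in oil 28.3% did. The cDC2 gate took in 879 of 1262 C1q macrophage-gate cells (69.7%) in tamoxifen and 1059 of 1221 (86.7%) in oil. The alveolar gate shared 208 of its 2507 cells (8.30%) with the cDC1 gate in tamoxifen, and 22.3% of its 476 cells in oil. Levels are therefore given first for cells that passed the named gate and no other, called single-gate cells, and then for all cells of a gate where the 2 differ. Single-gate C1q macrophages were only 179 of the 1262 cells of their gate in tamoxifen and 108 of 1221 in oil. Whether a cell in several gates is a doublet, holds free RNA or shares the gate gene was not tested.

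**Figure D1:**
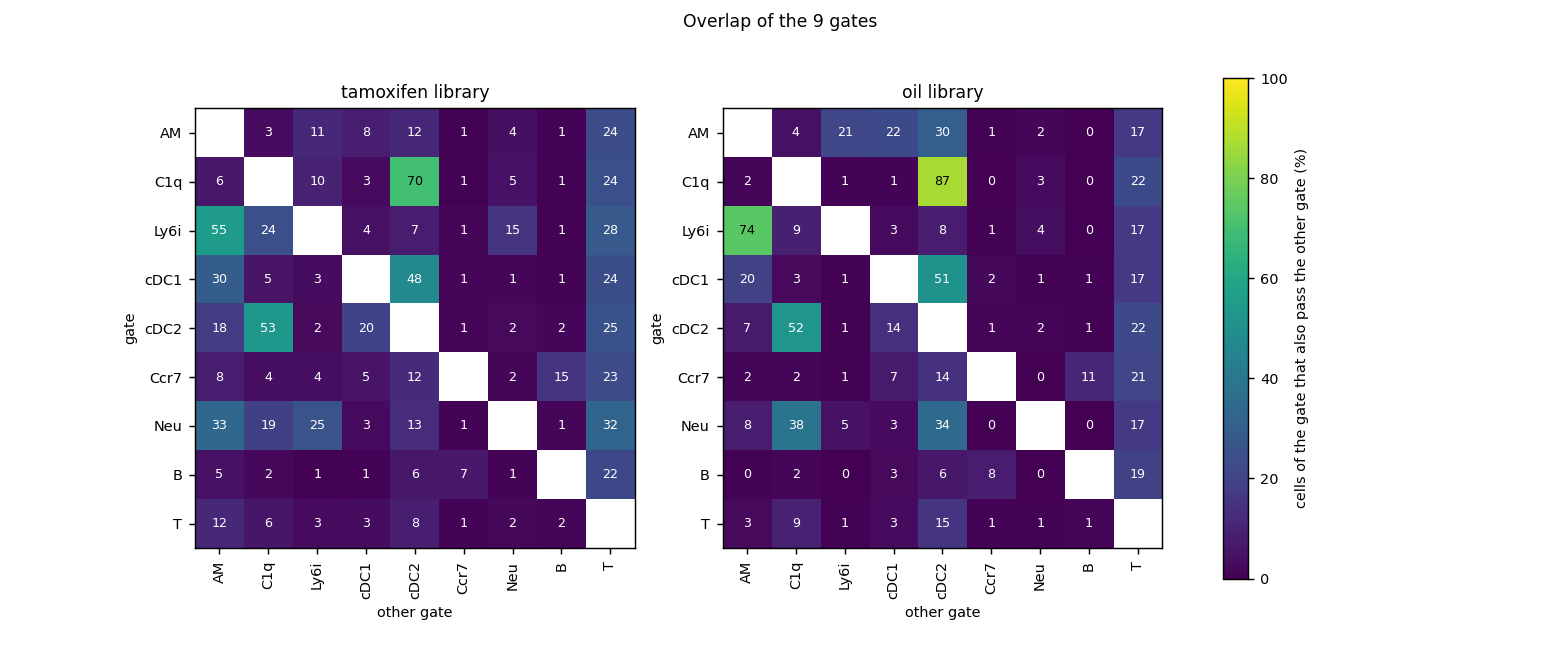
Each square gives the share (%) of the cells of the gate on the vertical axis that also passed the gate on the horizontal axis, with tamoxifen left and oil right (AM, alveolar macrophage; Neu, neutrophil). The highest square is the C1q macrophage gate in the cDC2 gate, at 69.7% in tamoxifen and 86.7% in oil.

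Marker genes other than the gate genes were checked by whether their CPM, the UMIs of the gene per 1000000 UMIs of the gate's cells, was highest in their own gate. In single-gate cells, all 8 alveolar markers in tamoxifen and 6 of 8 in oil were highest there, while over all cells of the gate 8 of 8 were in tamoxifen and 1 of 8 in oil. All 5 cDC1 markers, all 7 neutrophil markers and all 7 C1q macrophage markers were highest in their own single-gate cells in both libraries. The cDC2 gate held 3 of 5 in tamoxifen and 2 of 5 in oil, with Sirpa and Itgam higher elsewhere, so it is called by its gate. The Ly6i-Chil1-Gpnmb gate likewise had 4 of 7 in tamoxifen and 3 of 7 in oil and had 40 and 15 single-gate cells, so fewer of its values are given. Levels are compared between gates within a gene and not between genes, since 3' UMIs of different genes are captured unequally.

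Among the surface receptors, Tlr2, which binds bacterial lipoproteins as a heterodimer with Tlr1 or another family member, was a gene of macrophages and neutrophils. Tlr2 (chr3:83836272-83841767, minus strand) stood at 465 CPM (454 to 478) in tamoxifen and 329 CPM (301 to 359) in oil single-gate alveolar macrophages. In C1q macrophages it was 349 CPM (320 to 380) in tamoxifen and 352 CPM (311 to 398) in oil, and in neutrophils 374 CPM (304 to 456) in tamoxifen and 857 CPM (689.7 to 1052) in oil. In tamoxifen the alveolar interval lay above the C1q macrophage one, and the neutrophil interval overlapped both. The C1q macrophage interval overlapped that of the Ly6i-Chil1-Gpnmb gate. In oil the neutrophil level stood above the others, on 91 UMIs from 37 cells.

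Tlr2 then stepped down to 126 CPM (112 to 141) in tamoxifen and 133 CPM (124 to 143) in oil cDC2-gate cells, and further to 16.2 CPM in tamoxifen and 20.7 CPM in oil cDC1. The step between cDC2 and the next gate was larger than the counting intervals in both libraries. B cells had 5.72 CPM in tamoxifen and 2.68 CPM in oil, and T cells 7.76 CPM in tamoxifen and 3.81 CPM in oil. A Tlr2 UMI was found in 86.6% of single-gate alveolar macrophages in tamoxifen and 59.8% in oil, at median depths of 9160 and 9157 UMIs. T cells, taken as the background for free RNA, showed one in 3.02% of cells in tamoxifen and 1.57% in oil, at medians of 5064 and 5565 UMIs. Thinned to 1500 UMIs per cell, which left out 44 tamoxifen and 8 oil alveolar macrophages, the alveolar shares were 45.3% in tamoxifen and 27.3% in oil, and the T cell shares were 1.16% and 0.522%.

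Tlr1 (chr5:64924679-64933563, minus strand), the partner of Tlr2 for triacylated lipoproteins, did not follow it. In single-gate alveolar macrophages it had 1 UMI in 1355 tamoxifen cells and 0 UMIs in 169 oil cells, where 3 UMIs would be 1.99 CPM. C1q macrophages had 11.8 CPM (6.99 to 18.6) in tamoxifen and 12.1 CPM (5.53 to 23.0) in oil. B cells were close to them, at 11.0 CPM (6.95 to 16.5) in tamoxifen and 8.03 CPM (4.15 to 14.025) in oil. In T cells Tlr1 was 3.49 CPM (2.72 to 4.40) in tamoxifen and 5.41 CPM (4.22 to 6.82) in oil. The C1q macrophage and B cell intervals overlapped in both libraries.

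Tlr4 (chr4:66827584-66930284, plus strand), the lipopolysaccharide receptor, was highest in neutrophils, alveolar macrophages and the Ly6i-Chil1-Gpnmb gate. Alveolar macrophages had 73.2 CPM (68.6 to 78.1) in tamoxifen and 67.0 CPM (54.6 to 81.4) in oil. Neutrophils had 80.2 CPM (49.7 to 123) in tamoxifen and 132 CPM (72.1 to 221) in oil, on 21 and 14 UMIs. The Ly6i-Chil1-Gpnmb gate had 33.8 CPM (19.7 to 54.2) in tamoxifen and 94.5 CPM (50.3 to 162) in oil, on 17 and 13 UMIs. C1q macrophages were lower than alveolar macrophages in both libraries, at 18.3 CPM (12.2 to 26.5) in tamoxifen and 16.1 CPM (8.34 to 28.2) in oil. In cDC1, Tlr4 had 0 UMIs in 206 tamoxifen cells, where 3 UMIs would be 1.13 CPM, and 7 UMIs (2.73 CPM) in 187 oil cells. The cDC2 gate held 5.18 CPM in tamoxifen and 5.11 CPM in oil. The share of alveolar macrophages with a Tlr4 UMI was 44.0% in tamoxifen and 36.1% in oil, against 0.390% and 0.467% of T cells. Thinned to 1500 UMIs, the alveolar shares were 9.38% in tamoxifen and 8.70% in oil.

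**Figure D2:**
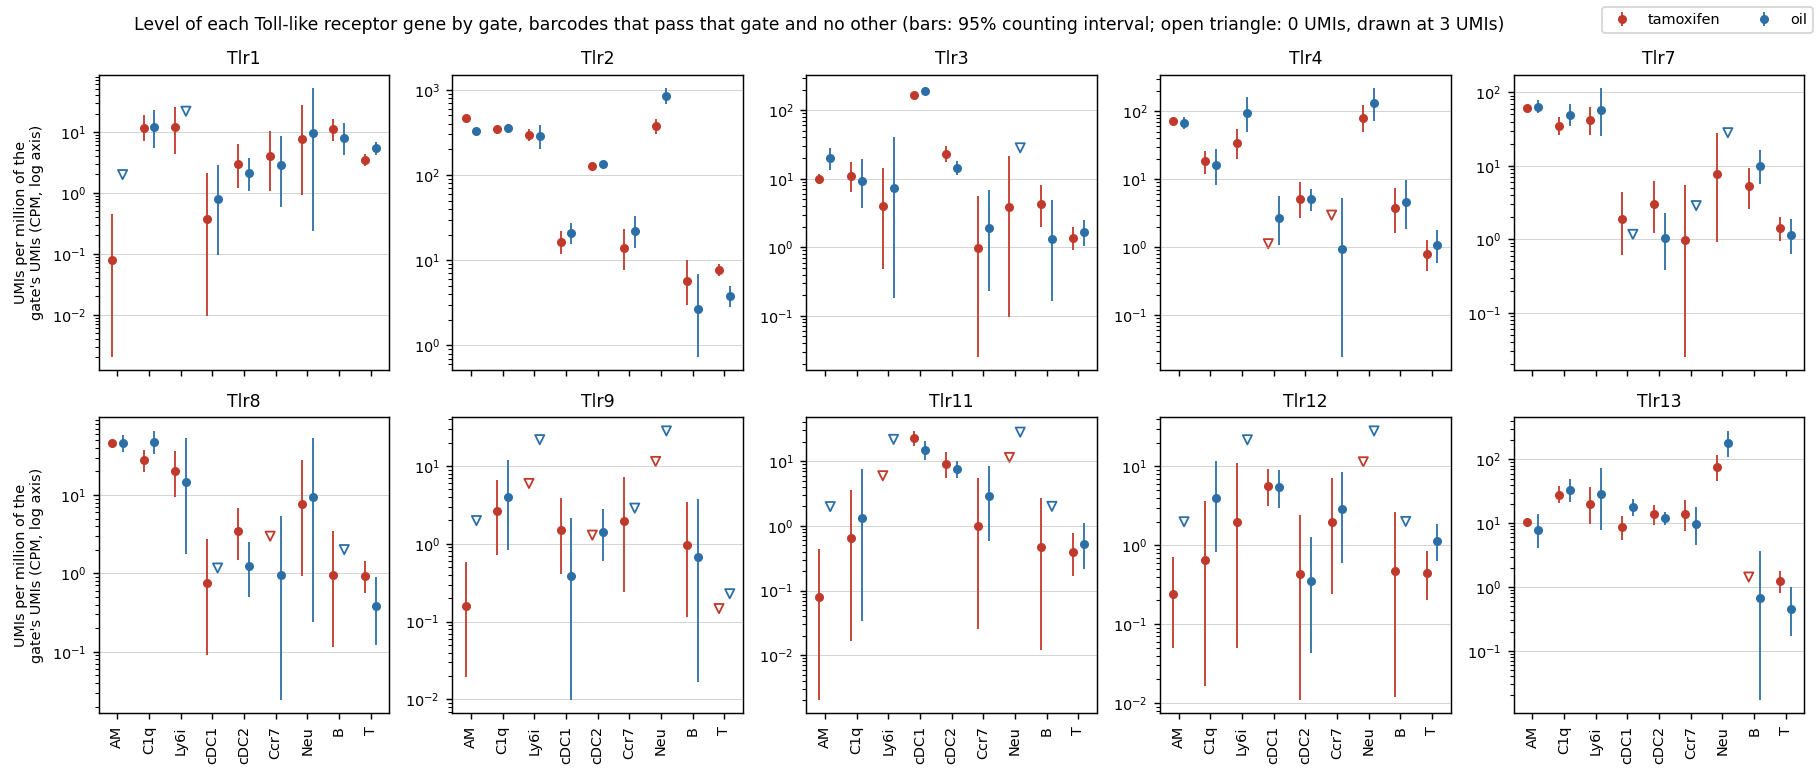
Each panel gives 1 gene, with CPM on a log axis against the 9 gates in single-gate cells (points, tamoxifen left in red and oil right in blue; bars, 95% counting interval; open triangles, 0 UMIs, drawn at 3 UMIs). Tlr3, Tlr11 and Tlr12 peak in cDC1 in both libraries, Tlr4 and Tlr13 in neutrophils and Tlr7 in alveolar macrophages. The peaks of Tlr4, Tlr7 and Tlr12 have intervals that overlap those of the next gate.

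Endosomal receptors for nucleic acids split between macrophages, neutrophils and cDC1. Tlr3, which binds double-stranded RNA, was the cDC1 member, at 165 CPM (150 to 182) in tamoxifen and 193 CPM (177 to 211) in oil (chr8:45395665-45411080, minus strand). Its next gate in tamoxifen was cDC2 with 23.3 CPM (17.5 to 30.4), and in oil alveolar macrophages with 19.9 CPM (13.4 to 28.4). In both libraries the cDC1 interval lay wholly above that of every other gate. Of single-gate cDC1, 77.2% in tamoxifen and 80.2% in oil had a Tlr3 UMI, at medians of 13210 and 14190 UMIs, against 0.546% and 0.849% of T cells. After thinning to 1500 UMIs, which left out 2 cDC1 in each library, the shares were 25.5% in tamoxifen and 29.7% in oil, and those of T cells 0.1697% and 0.427%.

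Tlr7 and Tlr8 are neighbours on the X chromosome that encode receptors for single-stranded RNA and its breakdown products. In single-gate cells they were macrophage genes and nearly absent from the dendritic cell gates. Plasmacytoid dendritic cells had no gate here. Tlr7 (chrX:167304929-167330558, minus strand) stood at 61.7 CPM (57.4 to 66.2) in tamoxifen and 63.7 CPM (51.6 to 77.7) in oil alveolar macrophages. C1q macrophages had 35.4 CPM (26.6 to 46.1) in tamoxifen and 49.8 CPM (35.0 to 68.6) in oil. In cDC1, Tlr7 had 5 UMIs in tamoxifen and 0 in oil, where 3 UMIs would be 1.17 CPM, and cDC2-gate cells had 3.02 CPM in tamoxifen and 1.06 CPM in oil. Neutrophils had 2 Tlr7 UMIs in tamoxifen and 0 in oil. B cells had 5.25 CPM (2.62 to 9.39) in tamoxifen and 10.0 CPM (5.62 to 16.6) in oil, so that in oil the B cell level lay above that of T cells, 1.14 CPM (0.639 to 1.88), and below that of every macrophage gate. Over all cells of the C1q macrophage gate Tlr7 was 30.4 CPM in tamoxifen and 26.3 CPM in oil.

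Tlr8 (chrX:167242696-167264329, minus strand) was 46.0 CPM (42.3 to 49.9) in tamoxifen and 45.8 CPM (35.6 to 57.9) in oil alveolar macrophages. C1q macrophages held 27.5 CPM (19.8 to 37.2) in tamoxifen and 47.1 CPM (32.8 to 65.5) in oil, so the alveolar level stood above the C1q level in tamoxifen and the intervals overlapped in oil. The cDC2 gate had 3.45 CPM in tamoxifen and 1.23 CPM in oil, and cDC1 had 2 UMIs in tamoxifen and 0 in oil. T cells had 0.933 CPM in tamoxifen and 0.381 CPM in oil. The alveolar and C1q macrophage intervals both lay above those of cDC1 and the cDC2 gate in each library, while the Ly6i-Chil1-Gpnmb interval in oil, on 2 UMIs, did not clear the cDC2 one. Over all cells of the C1q macrophage gate Tlr8 was 21.7 CPM in tamoxifen and 21.7 CPM in oil.

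Within all C1q macrophage-gate cells outside the alveolar gate, Tlr7 was higher in those that held the tissue-resident genes Folr2, Cd163 and Stab1. These are not single-gate cells, since 69.7% of C1q macrophage-gate cells in tamoxifen and 86.7% in oil also passed the cDC2 gate, and cells in these 2 gates and no other had 23.7 CPM of Tlr7 in tamoxifen and 25.1 CPM in oil. The part of that overlap in the values was not tested. Cells with at least 2 UMIs of these 3 genes had 53.7 CPM of Tlr7 (44.0 to 65.0) in 183 tamoxifen cells and 54.7 CPM (44.9 to 66.1) in 211 oil cells. Cells with none of them had 21.0 CPM (17.98 to 24.4) in 802 tamoxifen cells and 18.6 CPM (15.7 to 22.0) in 775 oil cells. For Tlr8 the same pair of values was 27.9 CPM (21.0 to 36.3) against 20.9 CPM (17.9 to 24.3) in tamoxifen and 38.5 CPM (30.3 to 48.2) against 18.1 CPM (15.2 to 21.4) in oil, so the Tlr8 intervals were apart in oil and overlapped in tamoxifen. Tlr2 differed in order between the libraries, with 278 CPM (255 to 302) against 319 CPM (307 to 332) in tamoxifen and 306 CPM (282 to 331) against 286 CPM (274 to 298) in oil, where the intervals overlapped. Tlr13 had 26.3 CPM (19.7 to 34.5) against 19.2 CPM (16.3 to 22.4) in tamoxifen, with overlapping intervals, and 33.4 CPM (25.9 to 42.5) against 18.6 CPM (15.7 to 22.0) in oil, with intervals apart.

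Tlr13 (chrX:106143204-106160493, plus strand), the sensor of bacterial ribosomal RNA in mice, was highest in neutrophils, at 76.4 CPM (46.7 to 118) in tamoxifen and 179 CPM (108 to 279) in oil. These levels rest on 20 and 19 UMIs, and the summed neutrophil markers of these cells were lower in oil, as given below. C1q macrophages came next with 28.2 CPM (20.4 to 37.9) in tamoxifen and 33.6 CPM (21.8 to 49.6) in oil. Alveolar macrophages had less, 10.3 CPM (8.58 to 12.2) in tamoxifen and 7.96 CPM (4.11 to 13.9) in oil. Both dendritic cell gates carried it, with 8.65 CPM (5.48 to 12.98) in tamoxifen and 17.9 CPM (13.1 to 23.9) in oil cDC1, and 13.8 CPM (9.44 to 19.5) in tamoxifen and 11.97 CPM (9.29 to 15.2) in oil cDC2-gate cells. B cells had 0 UMIs in 266 tamoxifen cells and 1 in 155 oil cells, so Tlr13 was detected in every myeloid gate and hardly in B cells.

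Tlr9 (chr9:106222598-106226883, plus strand), the receptor for unmethylated CpG DNA, was barely detected. The 9 gates held 14 Tlr9 UMIs in tamoxifen and 13 in oil in single-gate cells. The highest value was that of C1q macrophages, 4 UMIs (2.62 CPM, 0.714 to 6.71) in tamoxifen and 3 UMIs (4.03 CPM, 0.832 to 11.8) in oil, with intervals that overlapped those of the next gates. In 3846 tamoxifen and 2356 oil T cells there was no Tlr9 UMI, where 3 UMIs would be 0.147 CPM and 0.228 CPM.

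The last pair, Tlr11 and Tlr12, sense the profilin of apicomplexan parasites in mice. Tlr11 (chr14:50357914-50363663, plus strand) was 22.9 CPM (17.5 to 29.5) in tamoxifen and 14.8 CPM (10.5 to 20.3) in oil cDC1. The cDC2 gate followed with 9.06 CPM (5.61 to 13.8) in tamoxifen and 7.57 CPM (5.48 to 10.2) in oil, below cDC1 by more than the intervals in both libraries. Alveolar macrophages had 1 Tlr11 UMI in tamoxifen and 0 in oil. A Tlr11 UMI was seen in 23.3% of cDC1 in tamoxifen and 15.5% in oil, against 0.208% and 0.255% of T cells. Tlr12 (chr4:128615443-128618619, minus strand) had 5.64 CPM (3.16 to 9.30) in tamoxifen and 5.45 CPM (2.98 to 9.15) in oil cDC1, on 15 and 14 UMIs, and the cDC2 gate had 0.4315 CPM in tamoxifen and 0.352 CPM in oil. The Tlr12 interval of cDC1 overlapped that of the next gate in both libraries.

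Counted over the family, 6 of the 9 members with at least 20 single-gate UMIs in each library had the same highest gate in both, where 51.5% of 12586 genes did. They were Tlr3, Tlr11 and Tlr12 in cDC1, Tlr4 and Tlr13 in neutrophils and Tlr7 in alveolar macrophages. For Tlr4, Tlr7 and Tlr12 the interval of the highest gate overlapped that of the next gate in both libraries. Of all genes, 2.75% were highest in cDC1 in both libraries, 6.8% in neutrophils and 14.1% in alveolar macrophages. Over all cells of each gate the count was 5 of 10, where 46.9% of 14047 genes did. Neither count is read as particular to the family.

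When all cells of a gate were used, the profiles changed at the overlaps. The alveolar gate then held 19.3 CPM of Tlr3 in tamoxifen and 50.4 CPM in oil, and 52.7% of its 529 Tlr3 UMIs in tamoxifen and 75.2% of its 315 in oil came from cells that also passed the cDC1 gate. For Tlr11 these shares were 88.5% of 52 UMIs in tamoxifen and 88.4% of 43 in oil. Cells in these 2 gates and no other differed between the libraries, since 43 tamoxifen cells had 108 CPM of Tlr3 (84.1 to 136) with 142 CPM of Tlr2 (114 to 174), and 21 oil cells had 164 CPM of Tlr3 (123 to 213) with 5.95 CPM of Tlr2 (0.720 to 21.5).

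The cDC2 gate showed the same with C1q macrophages. Of its Tlr7 UMIs, 76.6% in tamoxifen and 91.0% in oil were in cells that also passed the C1q gate, as were 79.6% and 90.5% of its Tlr8 UMIs and 74.7% and 73.4% of its Tlr2 UMIs, where these cells were 53.0% of the gate in tamoxifen and 52.0% in oil. Its Tlr3 UMIs lay to 76.7% in tamoxifen and 75.3% in oil in cells of the cDC1 gate, which were 20.1% and 13.6% of its cells. In the T cell gate, 96.0% of Tlr2 UMIs in tamoxifen and 95.6% in oil sat in cells that also passed a myeloid gate. Of the neutrophil gate's Tlr7 UMIs, 98.0% in tamoxifen and all 25 in oil were in cells of another gate.

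**Figure D3:**
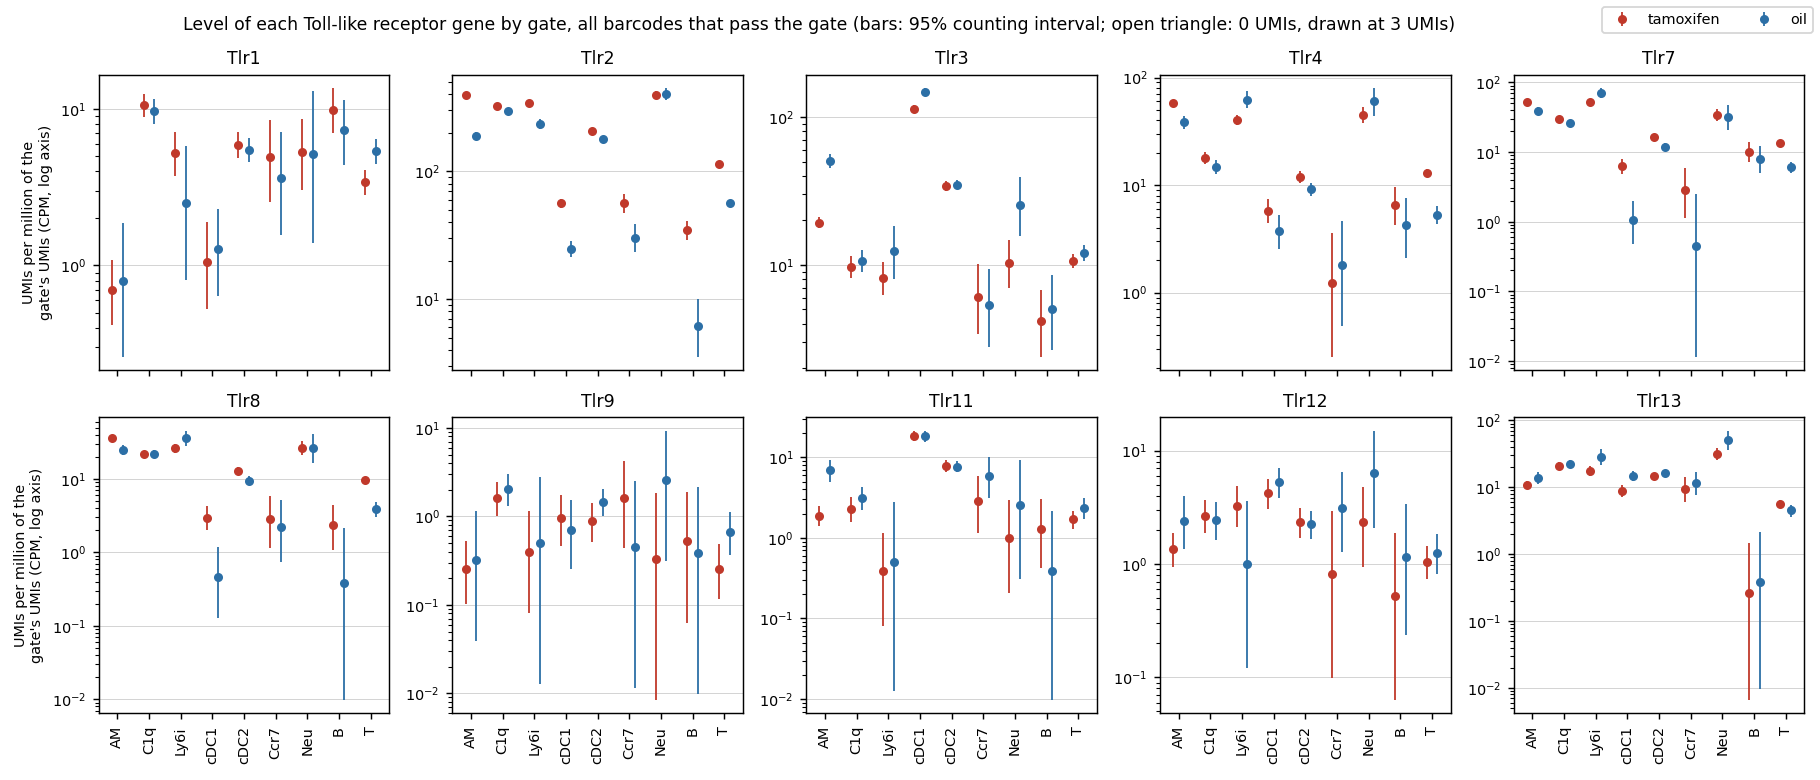
The same layout for all cells that passed each gate, overlaps included. The alveolar gate's Tlr3 level is 19.3 CPM in tamoxifen and 50.4 CPM in oil here, and the cDC2 gate carries Tlr7 at 16.4 CPM in tamoxifen and 11.9 CPM in oil.

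Next, the libraries were compared within each gate, by the log2 ratio of tamoxifen over oil for pairs of a member and a gate with at least 20 UMIs over both. A ratio past 2-fold in either direction was counted, as a description without a test, beside the share of all genes past it in the same gate. The count was 16 of 73 pairs over all cells and 8 of 41 pairs in single-gate cells. By gate, the share of all genes lay between 4.06% and 13.6% over all cells and between 4.77% and 20.7% in single-gate cells. A cell in several gates enters several pairs, so the pairs over all cells are not separate observations. Neither pooled count is read as particular to the receptors. The single-gate pairs are given first for each gate.

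In alveolar macrophages, 0 of 6 members were past 2-fold in single-gate cells, where 9.5% of all genes were. Tlr2 was higher in tamoxifen by a log2 ratio of 0.50 (0.37 to 0.64), and Tlr3 was lower, at -0.998 (-1.58 to -0.37). The ratios of Tlr4 (0.13, -0.17 to 0.44), Tlr7 (-0.05, -0.35 to 0.28) and Tlr8 (0.01, -0.35 to 0.39) had intervals that took in 0. Over all cells of the gate 3 of 9 members were past 2-fold, where 9.86% of genes were, with Tlr2 at 1.05 (0.96 to 1.14), Tlr3 at -1.39 (-1.59 to -1.18) and Tlr11 at -1.86 (-2.47 to -1.24). The Tlr11 ratio was 0.46 in male cells, and single-gate cells held 1 Tlr11 UMI in tamoxifen and 0 in oil. The overlap with the cDC1 gate was 8.30% of the cells in tamoxifen and 22.3% in oil. Other overlaps differed too, such as 11.7% and 30.3% with the cDC2 gate and 23.5% and 17.0% with the T cell gate. The part of these overlaps in the 3 ratios was not tested apart from the single-gate values.

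In C1q macrophages 0 of 7 members were past 2-fold in single-gate cells (10.7% of genes were), and 0 of 10 over all cells (5.37%). Tlr2 had a log2 ratio of -0.01 (-0.23 to 0.21) in single-gate C1q macrophages, and Tlr8 one of -0.77 (-1.46 to -0.08), on 42 and 35 UMIs. Over all cells of that gate Tlr2 was at 0.13 (0.06 to 0.19). Tlr8 was then at 0.002 (-0.24 to 0.25), on 293 tamoxifen and 258 oil UMIs. In the cDC2 gate 0 of 5 members in single-gate cells (6.2% of genes) and 0 of 10 over all cells (4.06%) were past 2-fold. Single-gate Tlr3 was at 0.69 (0.17 to 1.20) there, and Tlr2 at -0.08 (-0.28 to 0.12). Over all cells of the cDC2 gate Tlr3 was at -0.03 (-0.18 to 0.12) and Tlr2 at 0.19 (0.13 to 0.25).

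Among cDC1, 1 of 5 members in single-gate cells was past 2-fold, where 4.77% of genes were. It was Tlr13, at 8.65 CPM in tamoxifen and 17.9 CPM in oil, a log2 ratio of -1.05 (-1.84 to -0.30) on 23 and 46 UMIs. Tlr3 itself was at -0.22 (-0.41 to -0.04) and Tlr11 at 0.63 (0.02 to 1.26). Over all cells 3 of 9 were past 2-fold (5.79% of genes), namely Tlr2 at 1.19 (0.96 to 1.42), Tlr7 at 2.57 (1.56 to 3.76) and Tlr8 at 2.67 (1.17 to 4.64). Of these UMIs in tamoxifen, 61.3% of Tlr2, 80.0% of Tlr7 and 71.0% of Tlr8 lay in cells that also passed the alveolar gate, and in single-gate cDC1 the Tlr2 ratio was -0.35 (-0.97 to 0.25).

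Neutrophils had 2 of 3 members past 2-fold in single-gate cells, where 19.5% of genes were, and 1 of 7 over all cells (13.6%), Tlr3 at -1.31 (-2.17 to -0.42). That Tlr3 ratio was 1.23 in female cells, and single-gate neutrophils held 1 Tlr3 UMI in tamoxifen and 0 in oil. Single-gate Tlr2 was at -1.19 (-1.62 to -0.77) and Tlr13 at -1.23 (-2.21 to -0.24), both lower in tamoxifen. The median log2 ratio of genes with at least 20 UMIs in each library was -0.23 in single-gate neutrophils. Tlr2 and Tlr13 passed 2-fold by less than that shift, which was not taken out. Over all cells the Tlr2 levels were 397 CPM (375 to 420) in tamoxifen and 400.2 CPM (357 to 447) in oil. The single-gate cells numbered 76 in tamoxifen and 37 in oil, and their summed level of 7 neutrophil markers was 76370 CPM in tamoxifen and 16549 CPM in oil. The part of that marker difference in the receptor ratios was not tested.

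The Ly6i-Chil1-Gpnmb gate had 2 of 8 members past 2-fold over all cells (9.5% of genes), Tlr1 at 1.07 (-0.27 to 2.77) and Tlr12 at 1.72 (-0.29 to 4.84), whose intervals took in 0. In its 40 tamoxifen and 15 oil single-gate cells 1 of 3 was (20.7% of genes), Tlr4 at -1.48 (-2.61 to -0.32) on 17 and 13 UMIs. The Ccr7 dendritic cell gate had 1 of 5 over all cells (7.93% of genes), Tlr11 at -1.04 (-2.60 to 0.40), and 0 of 2 in single-gate cells (7.36%). Summed alveolar markers in the Ly6i-Chil1-Gpnmb gate were 7371 CPM in tamoxifen and 18173 CPM in oil, and summed neutrophil markers 14907 CPM in tamoxifen and 3242 CPM in oil.

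In B cells 1 of 5 members was past 2-fold over all cells (7.79% of genes), Tlr2 at 2.48 (1.73 to 3.33), and 90.9% of its 132 UMIs in tamoxifen lay in cells of another gate. Single-gate B cells had 0 of 2 (6.26%). In T cells 5 of 10 were past 2-fold over all cells (7.2% of genes), with Tlr2 at 1.01, Tlr4 at 1.30, Tlr7 at 1.16, Tlr8 at 1.32 and Tlr9 at -1.40, and 4 of 8 in single-gate cells (4.98%). Of the 5 past 2-fold over all cells, Tlr4 was at -0.44 and Tlr7 at 0.32 in single-gate T cells, and Tlr9 had 0 UMIs there in both libraries. In male T cells, over all cells of the gate, Tlr2 was at -0.20 and Tlr4 at -0.10. The single-gate T cell values were all low, and Tlr2, at 7.76 CPM in tamoxifen and 3.81 CPM in oil, was at 1.03 (0.56 to 1.51) on 158 and 50 UMIs. Summed alveolar markers in single-gate T cells were 90.7 CPM in tamoxifen and 45.6 CPM in oil, and summed neutrophil markers 156 CPM in tamoxifen and 59.6 CPM in oil, and their part in the Tlr2 ratio was not tested. The other members past 2-fold were Tlr8 at 1.29, Tlr12 at -1.37 and Tlr13 at 1.43, on 5 to 25 UMIs per library.

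**Figure D4:**
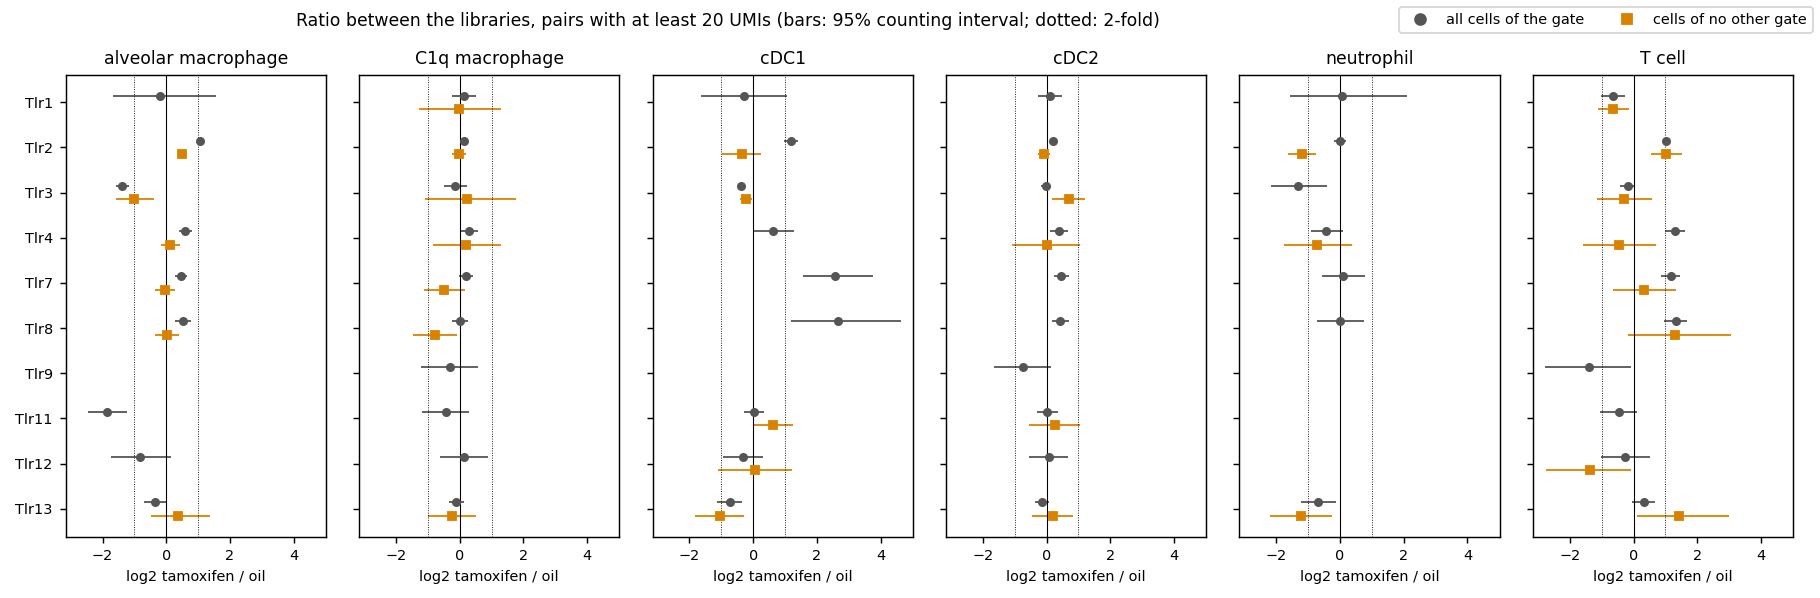
Log2 ratio of tamoxifen over oil for each gene in 6 gates, for all cells of the gate (grey circles) and for single-gate cells (orange squares), with 95% counting intervals, 0 as a solid line and 2-fold as dotted lines. Alveolar Tlr2 is at 1.05 over all cells and at 0.50 in single-gate cells, and cDC1 Tlr2 is at 1.19 and -0.35.

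Each library held female and male cells, called by Xist without Y-linked transcripts or by Y-linked transcripts without Xist, with 6156 female and 1679 male cells in tamoxifen and 3714 female and 1413 male in oil. No call was made for 2303 kept barcodes in tamoxifen and 1667 in oil, which these comparisons leave out. How many animals stand behind each sex is not given, so these are comparisons of cells and not of animals. Tlr3 was lower in female than in male single-gate cDC1 in both libraries, with 133 CPM in female and 194 CPM in male cells of tamoxifen, a log2 ratio of -0.55 (-0.86 to -0.24), and 153 CPM in female and 277.5 CPM in male cells of oil, at -0.86 (-1.13 to -0.60). The cDC2 gate had the same order, with 7.60 CPM in female and 41.7 CPM in male cells of tamoxifen and 9.36 CPM in female and 21.3 CPM in male cells of oil.

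Alveolar macrophages ran the other way for 3 members. Tlr2 was 479.8 CPM in female and 334 CPM in male cells of tamoxifen, at 0.52 (0.34 to 0.71), and 399.9 CPM in female and 237 CPM in male cells of oil, at 0.76 (0.42 to 1.11). The X-linked Tlr8 was 47.9 CPM in female and 26.04 CPM in male cells of tamoxifen, at 0.88 (0.22 to 1.62), and 57.9 CPM in female and 24.8 CPM in male cells of oil, at 1.22 (0.20 to 2.43). Tlr7, also X-linked, was at 0.57 (0.05 to 1.14) in tamoxifen and 0.61 (-0.15 to 1.44) in oil, so its interval took in 0 in oil. The remaining X-linked member, Tlr13, was at 0.15 (-0.94 to 1.498) in tamoxifen alveolar macrophages and at 0.12 (-0.83 to 1.12) in oil cDC1. C1q macrophages did not share the order of Tlr2 in both libraries, with 399 CPM in female and 206 CPM in male cells of tamoxifen, and 354 CPM in female and 373.5 CPM in male cells of oil.

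The sexes were unevenly represented between the libraries, since single-gate alveolar macrophages were 1142 female and 79 male cells in tamoxifen and 89 female and 41 male cells in oil. Within female cells the Tlr2 ratio of tamoxifen over oil was 0.26 (0.11 to 0.42), and within male cells it was 0.50 (0.14 to 0.87). For Tlr2 in single-gate C1q macrophages it was 0.17 (-0.13 to 0.49) in female cells and -0.86 (-1.37 to -0.36) in male cells, and that difference was not tested. In single-gate cDC1 the Tlr3 ratio was -0.20 (-0.52 to 0.11) in female cells and -0.51 (-0.77 to -0.26) in male cells. Tlr11 in single-gate cDC1 was at -0.01 (-0.94 to 0.90) in female cells and at 1.68 (0.60 to 2.92) in male cells, the last with 30.3 CPM in tamoxifen and 9.46 CPM in oil on 37 and 9 UMIs.

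**Figure D5:**
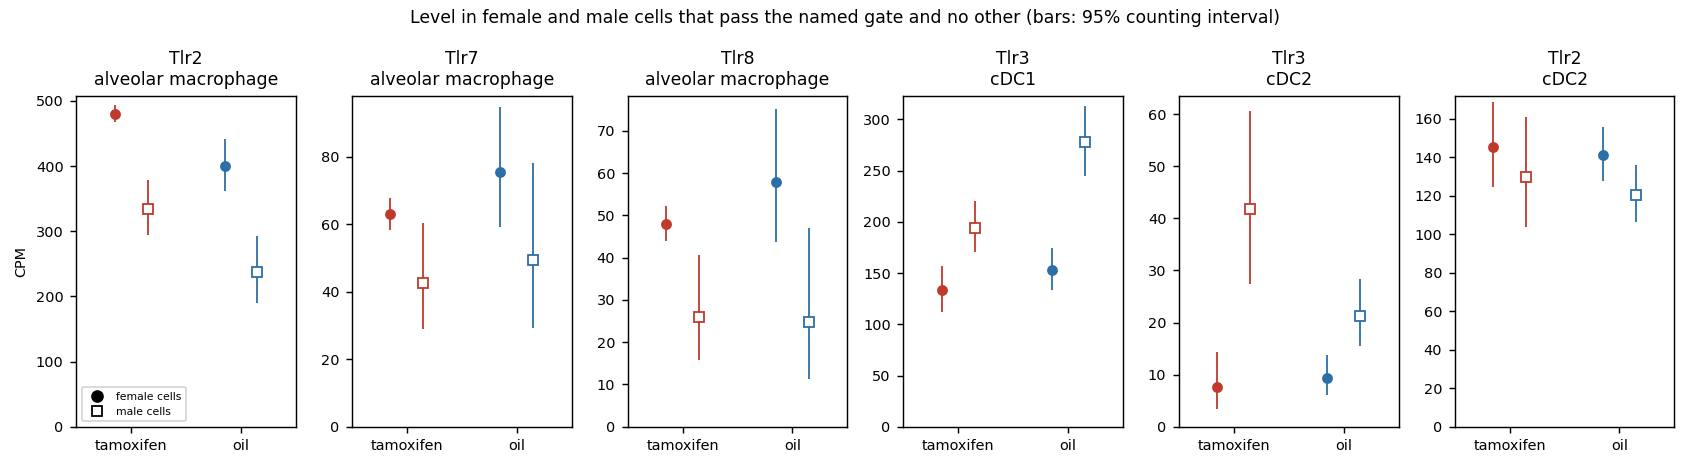
CPM in female (filled circles) and male (open squares) single-gate cells of the tamoxifen and oil libraries, with 95% counting intervals and each axis from 0. Alveolar Tlr2 and Tlr8 are higher in female cells, and Tlr3 in cDC1 and in the cDC2 gate is higher in male cells, of both libraries.

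Partners of the receptors, from a list of 64 pathway genes, showed where the machinery was transcribed beside them. Cd14, which hands lipopolysaccharide to Tlr4, was 170.1 CPM in tamoxifen and 138 CPM in oil alveolar macrophages, against 1764.5 CPM and 2518.5 CPM in C1q macrophages, so it did not follow Tlr4 across these gates. Ly96, the co-receptor MD-2 that Tlr4 needs, was 11.2 CPM in tamoxifen and 15.3 CPM in oil alveolar macrophages and 37.3 CPM and 36.3 CPM in C1q macrophages. The chaperone Unc93b1 was 134 CPM in tamoxifen and 122 CPM in oil alveolar macrophages, 252 CPM and 305 CPM in cDC1, and 13.2 CPM and 11.0 CPM in T cells. Cd180, a TLR-like protein that pairs with Ly86, was 40.6 CPM in tamoxifen and 34.7 CPM in oil cDC1 and 27.7 CPM and 30.8 CPM in B cells, while alveolar macrophages had 4.58 CPM and 5.97 CPM.

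Among adaptors, Tirap, which bridges Tlr2 and Tlr4 to Myd88, was 29.6 CPM in tamoxifen and 21.2 CPM in oil alveolar macrophages and 30.6 CPM and 47.1 CPM in neutrophils, with 9.82 CPM and 1.34 CPM in C1q macrophages. Myd88 was 63.2 CPM in tamoxifen and 60.3 CPM in oil alveolar macrophages and 28.2 CPM and 32.3 CPM in cDC1. Ticam2, the adaptor that brings Ticam1 to Tlr4, was 20.7 CPM in tamoxifen and 17.2 CPM in oil alveolar macrophages and 1.504 CPM and 2.34 CPM in cDC1. Ticam1, the adaptor of Tlr3, was 4.89 CPM in tamoxifen and 2.34 CPM in oil cDC1 and 11.6 CPM and 11.9 CPM in alveolar macrophages, so its highest level was not in the gate where Tlr3 peaked.

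Between the libraries, 3 pathway genes in the alveolar gate were past 2-fold higher in tamoxifen and 2 lower, of 61 tested over all cells, 8.20% of the list where 9.86% of all genes were. Tnf, an inflammatory cytokine, was at 1.23 (1.05 to 1.41), the inhibitor Tnip3 at -1.39 (-1.52 to -1.26) and the chemokine Ccl4 at -1.55 (-1.62 to -1.48). In single-gate alveolar macrophages 3 of 57 were past 2-fold higher and 0 lower, 5.26% of the list against 9.5% of all genes, so neither lower call was made there. The median of the tested induced targets was -0.18 over all cells (11 tested, all genes 0.12) and 0.92 in single-gate cells (9 tested, all genes 0.06). Past 2-fold over all cells, 3 of the 11 were higher and 1 lower. In single-gate cells 3 of the 9 were higher and 0 lower, 33.3% against 9.5% of all genes. The Ly6i-Chil1-Gpnmb gate had 9 higher and 1 lower of 61, 16.4% against 9.5% of all genes. Its 9 higher and 1 lower of 37 in single-gate cells, 27.0% against 20.7% of all genes, included Cd14 at 1.75 (1.38 to 2.14) and Cxcl10, an interferon-induced chemokine, at 1.47 (0.91 to 2.08). Irf7, the interferon regulator downstream of endosomal receptors, had 44 UMIs in tamoxifen and 0 in oil there. In these single-gate cells summed alveolar markers were 2492.5 CPM in tamoxifen and 13666 CPM in oil, and their part was not tested. Neutrophils had 6 higher and 6 lower of 60 over all cells, where 13.6% of all genes were past 2-fold, and 4 higher and 6 lower of 28 in single-gate cells, 35.7% of the list against 19.5% of all genes. In these single-gate cells, 76 in tamoxifen and 37 in oil, Ccl4 was at -1.59 (-1.80 to -1.38), Ptgs2 at -1.30 (-1.54 to -1.06) and Cxcl10 at 2.52 (1.68 to 3.50). Over all cells, 3 of 61 were higher and 0 lower in C1q macrophages (4.92%, all genes 5.37%), 3 of 60 and 0 in cDC1 (all genes 5.79%), and 1 of 62 and 0 in the cDC2 gate (1.61%, all genes 4.06%). The median log2 ratio of the tested pathway genes was 0.17 in the alveolar gate, where that of all genes was 0.12, and -0.02 in cDC1, where that of all genes was 0.05.

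Genes with the most similar profile were ranked by Pearson's r of log2(CPM + 10) over the 9 gates in both libraries (18 points that share cells and libraries). The ranks given first used all cells of each gate, overlaps included. For Tlr2 they were Clec4n (r = 0.978), Slc15a3 (0.974) and Creb5 (0.973), and for Tlr3 Clec9a (0.9705), which is a gate gene of cDC1, Kif5a (0.962) and Esyt3 (0.961). Tlr4 had Reps2 (0.9875), its own adaptor Tirap (0.984) and Pfkfb4 (0.978). The nearest to Tlr7 was Sh3bp2 (0.983), to Tlr8 Noct (0.983), to Tlr11 Proser2 (0.977) and to Tlr13 Snap23 (0.956). Tlr1, Tlr9 and Tlr12 had weaker neighbours, led by Prkcb (0.886), Camk2a (0.926) and Gm19951 (0.858). In single-gate cells the nearest genes of Tlr4 were Sgms2 (0.964), Atf4 (0.957) and Ralgds (0.952), without Tirap. Those of Tlr3 were then Olfr433 (0.971), Otof (0.964) and Naalad2 (0.959), without Clec9a. The nearest to Tlr2 became Lamp2 (0.964), while Tlr13 kept Snap23 (0.958). No member was among the 3 genes nearest to another member in either ranking.

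Detection of 2 members in the same cell told little at this depth. Among single-gate alveolar macrophages thinned to 5000 UMIs, Tlr8 was seen in 21.0% of cells with a Tlr7 UMI (16.6 to 26.01) and 19.7% of those without (17.1 to 22.5) in tamoxifen, and in 34.4% (18.6 to 53.2) and 17.3% (10.6 to 25.97) in oil.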

How the data were processed

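Live CD45-positive, intravascular-CD45-negative lung cells of 1 tamoxifen and 1 oil library were counted by the authors with Cell Ranger 5.0.1 against GRCm38 (mm10), per the submitters' processing notes, and each deposited matrix gives unnormalized UMI counts. The settings of that step are not given in the sources used here. In all there were 83730550 UMIs in tamoxifen and 57704412 in oil, of which 79853762 and 53146681 were in kept barcodes.

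From these counts, barcodes with at least 300 genes and under 10% mitochondrial UMIs were kept and gated by sums of raw UMIs: at least 2 for alveolar macrophages, cDC1, neutrophils and B cells, 5 for C1q macrophages, 3 for the Ly6i gate, 1 for cDC2 and T cells, and 1 each of Ccr7 and Fscn1. UMIs were summed per gate and library. Levels have exact Poisson intervals, ratios exact conditional binomial intervals and shares Clopper-Pearson intervals, all at 95%, in Python 3.11.15 with numpy 2.4.6, scipy 1.17.1, pandas 2.3.3 and scanpy 1.11.5. UMIs of one library are not replicates, so no test between conditions was made. The interval script was tested on simulated counts first. Doublets stayed in, and an alternative left out those that Scrublet scored, 4.10% of kept barcodes in tamoxifen at its automatic threshold. In oil that threshold marked 0.0589%, so the highest scores, 5.43%, were left out there, at a nominal rate of 0.8% per 1000 barcodes.

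The members, gates, marker lists and pathway list were chosen with earlier results of these data known. Pathway genes were named where they had at least 30 UMIs and 50 CPM in the higher library, a ratio of at least 2-fold and an interval clear of 1.5-fold. The 3 genes nearest to each member were named among genes with at least 100 UMIs, and the partners with levels were chosen by role.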

Additional observations from a re-analysis of the deposited data

Results flagged for a closer look

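Receptor UMIs were also found in kept barcodes that passed no gate, 1078 in tamoxifen and 1277 in oil. Tlr2 stood at 74.6 CPM in tamoxifen and 30.2 CPM in oil in these barcodes, Tlr4 at 13.4 CPM in tamoxifen and 6.55 CPM in oil, and Tlr7 at 9.64 CPM in tamoxifen and 2.34 CPM in oil. The counting intervals of the 2 libraries did not overlap for these genes, and what cells the barcodes hold was not tested.

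In 4 cases over all cells of a gate, the female and the male ratio of tamoxifen over oil had opposite signs and both counting intervals lay clear of 0. The difference itself was not tested. Other ratios had opposite signs with at least 1 interval that took in 0, such as Tlr11 in alveolar macrophages, at -2.88 in female and 0.46 in male cells, and Tlr2 in T cells, at 1.41 in female and -0.20 in male cells. Tlr4 in alveolar macrophages had a log2 ratio of 0.71 in female and -0.61 in male cells. Tlr11 had -0.70 in female and 1.43 in male cDC1, and -0.95 in female and 1.52 in male cDC2-gate cells. Tlr3 had -0.69 in female and 0.51 in male cDC2-gate cells. In single-gate cells none of the 4 had opposite signs with both intervals clear of 0. There alveolar Tlr4 was at 0.13 (-0.23 to 0.51) in female and -0.51 (-1.23 to 0.23) in male cells. Tlr11 in cDC1 was at -0.01 (-0.94 to 0.90) and 1.68 (0.60 to 2.92). Tlr3 in the cDC2 gate was at -0.30 (-1.58 to 0.84) and 0.97 (0.23 to 1.69). Tlr11 in that gate had 7 tamoxifen and 11 oil UMIs in male cells, too few for a ratio.

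For 2 members, single-gate ratios past 2-fold with intervals clear of 0 lay in both directions in different gates, again untested. Below 2-fold, Tlr3 also had intervals clear of 0 on both sides, at -0.998 in alveolar macrophages and 0.69 in the cDC2 gate. Over all cells Tlr3 was at -1.39 in the alveolar gate and -0.03 (-0.18 to 0.12) in the cDC2 gate. In single-gate female cells it was at -0.54 (-1.35 to 0.38) and -0.30 (-1.58 to 0.84). In male cDC2-gate cells of no other gate it was at 0.97 (0.23 to 1.69). The single-gate Tlr2 log2 ratio was 1.03 in T cells and -1.19 in neutrophils. The Tlr13 ratio was 1.43 in T cells, -1.05 in cDC1 and -1.23 in neutrophils. Both neutrophil ratios passed 2-fold by less than the median-of-ratios shift of -0.23 in those cells. The T cell values rest on levels of 7.76 CPM in tamoxifen and 3.81 CPM in oil for Tlr2, and 1.23 CPM in tamoxifen and 0.457 CPM in oil for Tlr13.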

How the results depend on the processing

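The count of 16 of 73 pairs past 2-fold became 8 of 41 in single-gate cells, 6 of 40 with cells thinned to 1500 UMIs, 6 of 44 in male cells, 25 of 90 with no UMI minimum and 28 of 73 at 1.5-fold. Under the other alternatives it lay between 11 and 18. Median-of-ratios scaling gave 14 of 73. The share of all genes past the cutoff is given here only for all cells and for single-gate cells. The counts under the other settings are therefore not read as particular to the receptors. The count of 5 members with the same highest gate became 3 with the gate thresholds doubled and 2 in female cells, and lay between 4 and 6 otherwise. Ratios past 2-fold that changed sign were Tlr2 in cDC1 (-0.35) and Tlr4 in T cells (-0.44) in single-gate cells, Tlr3 in neutrophils in female cells (1.23), and, in male cells, Tlr11 in alveolar macrophages (0.46), Tlr2 in T cells (-0.20) and Tlr4 in T cells (-0.10). The cause of these changes was not tested.

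The median-of-ratios shift between the libraries was over 0.1 on the log2 scale in 3 gates over all cells, with 0.12 in alveolar macrophages, -0.11 in the Ly6i-Chil1-Gpnmb gate and 0.13 in B cells, and it was -0.23 in single-gate neutrophils. Each condition is 1 library, so leaving out a replicate could not be done. No paired analysis was possible because each group has 1 library. Depth limits Tlr9, Tlr12 and Tlr1 in most gates, and all members in single-gate neutrophils and Ly6i-Chil1-Gpnmb cells.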
